A study of Mus musculus with 6 samples.

Results

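The 9 transcripts described here mark the ends of the liver lobule. Cyp2f2, Hal, Sds, Gls2 and Hsd17b13 are periportal markers, and Cyp2e1, Cyp1a2, Oat and Rhbg are pericentral ones. They were chosen by gene symbol, and each symbol matched 1 of the 55536 Ensembl genes in the count table. The 6 libraries hold mRNA of tumours in the livers of C3H mice, males aged 6 to 8 weeks, grown from 1000000 cells of the mouse hepatocellular carcinoma line HCA-1 placed under the liver capsule. The TSDP group (libraries 1, 2 and 5) received a nanoparticle loaded with DNIC, a nitric oxide donor, and sorafenib, a kinase inhibitor given in liver cancer, by vein 6 times between day 10 and day 23. The Control group (libraries 3, 4 and 5) was untreated, and the labels do not say whether it received an empty carrier. Tumours of both groups were taken on day 24 and carried the same implanted line, so every library can hold RNA of the implanted cells and of the host's liver, vessels and immune cells. The comparison asks how these zone markers stood in treated against untreated tumours.

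Hepatocytes divide their work along the path of blood from the portal vein to the central vein. Periportal cells, which see oxygen and nutrients first, carry out gluconeogenesis, urea synthesis and amino acid breakdown. Pericentral cells make glutamine from the ammonia that is left and hold the cytochrome P450 enzymes that oxidise drugs and alcohol. Wnt ligands and R-spondin from endothelium of the central vein keep beta-catenin active in the pericentral cells and so maintain their programme.

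RefSeq promoter windows (GRCm38.p6) were at hand for 6 of the 9 members. Shown are the 250 bases before the start site of Cyp2e1, the most abundant pericentral marker, and Cyp2f2, the periportal one with greatest fold change. Hal and Oat are added because, unlike these, they were still well counted in Control 3, the library with least albumin RNA. Capitals mark matches, on either strand, to the short motifs named after the sequences.
Cyp2e1, pericentral, chr7:140763569-140763818, + strand: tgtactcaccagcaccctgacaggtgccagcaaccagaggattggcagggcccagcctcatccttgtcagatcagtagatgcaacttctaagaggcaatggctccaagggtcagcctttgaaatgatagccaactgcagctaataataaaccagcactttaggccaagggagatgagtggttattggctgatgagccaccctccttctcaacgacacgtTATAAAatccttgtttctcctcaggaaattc
Cyp2f2, periportal, chr7:27119705-27119954, + strand: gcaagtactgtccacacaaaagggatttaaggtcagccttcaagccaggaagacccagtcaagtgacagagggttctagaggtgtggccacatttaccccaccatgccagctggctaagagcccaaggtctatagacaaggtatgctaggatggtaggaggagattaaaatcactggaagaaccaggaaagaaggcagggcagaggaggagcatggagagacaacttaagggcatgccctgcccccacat
Hal, periportal, chr10:93488518-93488767, + strand: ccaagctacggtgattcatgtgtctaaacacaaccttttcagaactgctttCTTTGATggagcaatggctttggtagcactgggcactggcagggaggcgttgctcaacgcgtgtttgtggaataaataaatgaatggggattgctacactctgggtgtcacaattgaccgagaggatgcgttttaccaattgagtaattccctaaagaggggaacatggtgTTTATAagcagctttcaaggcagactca
Oat, pericentral, chr7:132576399-132576648, - strand: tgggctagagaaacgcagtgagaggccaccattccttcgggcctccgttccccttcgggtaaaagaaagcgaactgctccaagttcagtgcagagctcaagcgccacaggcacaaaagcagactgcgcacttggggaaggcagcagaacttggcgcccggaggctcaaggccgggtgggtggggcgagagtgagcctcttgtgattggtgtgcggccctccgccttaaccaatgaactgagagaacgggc

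These motifs were the TCF/LEF core ATCAAAG, an HNF4 core CAAAGTC and the TATA box TATAAA, and no matches overlapped. Positions count back from the start site. In the Cyp2e1 window the TATA letters began at -31, and in that of Cyp1a2 at -29. Hal held them on the opposite strand at -28, and was the 1 window with the TCF/LEF core, at -199 on the opposite strand. Hsd17b13 held the HNF4 core at -17. No match to them lay in the windows of Cyp2f2 and Oat. Of all 32851 promoter windows of the same length, 3.21% held the TCF/LEF core, 3.84% the HNF4 core and 12.4% the TATA box. The Oat window stood apart in base composition, at 60.0% G and C with 14 CpG pairs, while Cyp2e1 had 48.8% and 2, Cyp2f2 51.6% and 0, Hal 45.6% and 6, Hsd17b13 44.8% and 3, and Cyp1a2 47.2% and 3. The median over all windows was 52.4% with 6 pairs.

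All 9 markers, of either zone, stood higher in each TSDP library than in any Control library. Among all 17423 tested genes the groups were without overlap in that direction for 13.0%, and in the opposite one for 8.76%. Fold changes ran on the log2 scale from 1.12 for Hal to 5.04 for Cyp2f2, with all 8 tested members above 0, as were 47.3% of all tested genes. Cyp2e1, the most abundant pericentral marker, stood at 2.77. None of the 8 members tested passed edgeR's quasi-likelihood test after Benjamini-Hochberg adjustment over all genes. Of all genes, 0.00% were called higher and 0.00% lower. At an unadjusted p under 0.05, 6 of the 8 were higher, where the share of all genes was 8.60% higher and 4.75% lower, and limma-voom called 0 members. DESeq2 called 4 members higher (Cyp2f2, Hal, Gls2 and Oat), with 2.98% of its genes called higher and 0.397% lower. Rhbg had too few reads for the edgeR test, and without the filter on low counts, where edgeR called 0.00300% of genes higher, no member was called.

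Total counts lay between 36376925 and 36629665 in TSDP libraries and between 32130808 and 38953397 in Control libraries, so depth differed little between the groups. RNA of hepatocyte genes varied widely between libraries, and the groups overlapped, with Control 4 above TSDP 5. The summed level of 16 broadly expressed hepatocyte genes, mostly of plasma proteins, was 34986, 67849 and 21883 CPM (counts per 1000000) in TSDP 1, 2 and 5, against 138.3, 27802 and 4352 CPM in Control 3, 4 and 5, with no gene of the list at 0 in any library. Albumin (Alb) alone was counted at 17147, 32438 and 11314 CPM in TSDP and at 62.7, 10350 and 1993 CPM in Control. Control 3 thus stood apart, so the fold changes and zone medians of the tested members, their levels per kb, the zone ratios and the Cyp2f2 share are given with and without it. The part that liver content had in the marker differences was not tested beyond a fit with a hepatocyte score, given after the single markers. In bulk tissue, fewer hepatocytes, less RNA per hepatocyte and expression of these genes by the implanted carcinoma cells cannot be told apart. Of the oncofetal tumour genes, Afp averaged 6.40 CPM ± 2.54 in TSDP and 3.52 CPM ± 0.218 in Control (SD, n = 3 each), Gpc3 3.10 and 1.75 CPM and H19 1.46 and 2.28 CPM, and Igf2 and Dlk1 were at 0 in some libraries. Afp, Gpc3, H19, Igf2 and Dlk1 were therefore scarce in all the tumours. Cd24a of the same list, named here after its values were seen, was higher, at 18.4 to 23.9 CPM in TSDP and 14.9 to 34.0 CPM in Control. Prom1, named likewise, reached 1.97 CPM in TSDP and 5.70 CPM in Control.

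**Figure D1:**
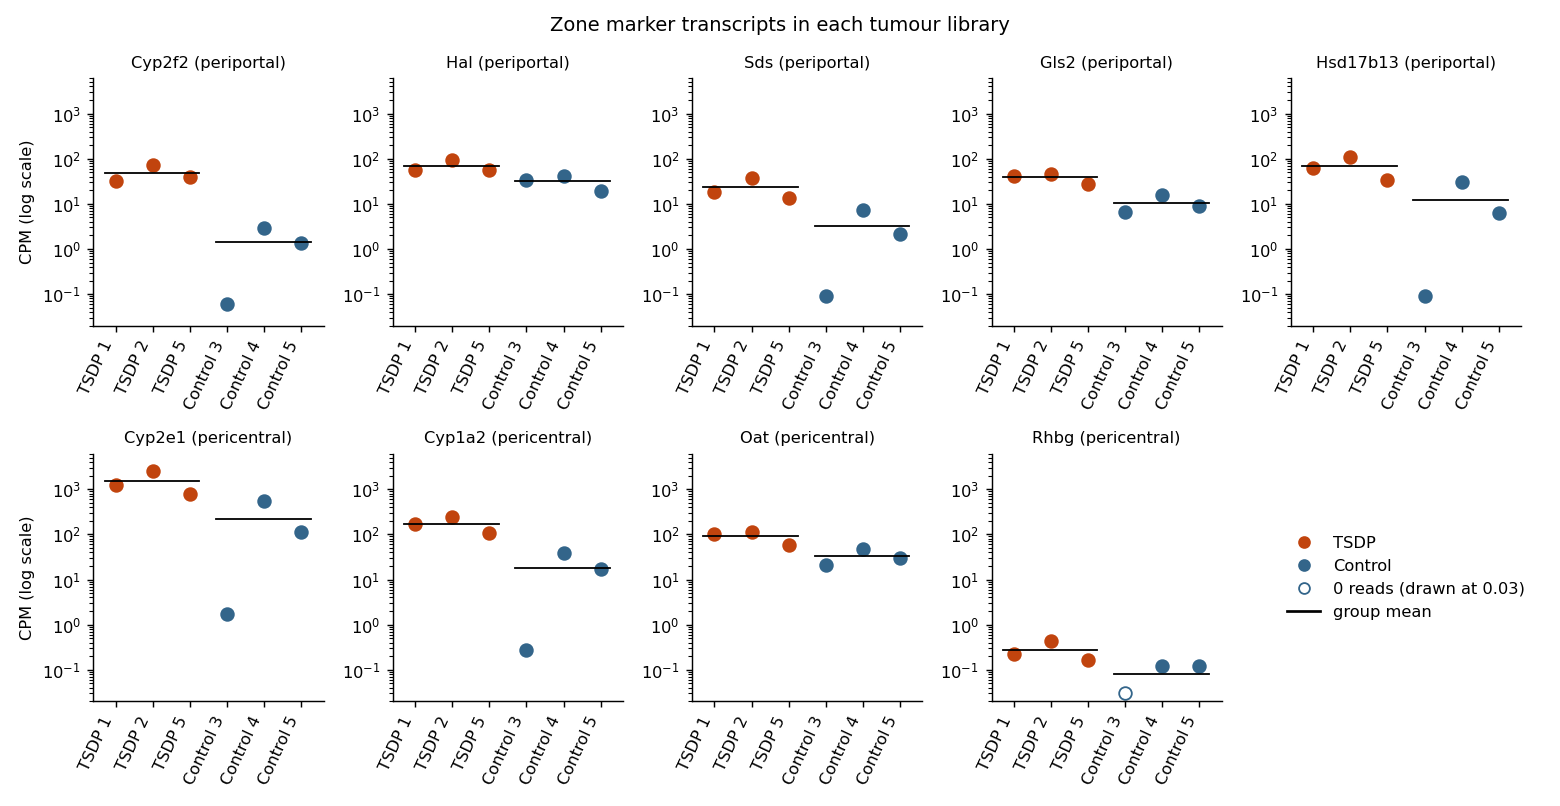
Level of each zone marker in each library, in CPM on a log axis, with TSDP libraries left of Control libraries and black lines at group means; the open circle marks the 0 reads of Rhbg in Control 3. The TSDP points lie above every Control point in all 9 panels, and Control 3 lies far below the other libraries for Cyp2f2, Sds, Hsd17b13, Cyp2e1 and Cyp1a2 but not for Hal, Gls2 or Oat.

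Cyp2f2 (ENSMUSG00000052974) is a cytochrome P450 of periportal hepatocytes and of club cells in mouse lung, known for activating naphthalene. It had 1198, 2481 and 1399 reads in TSDP 1, 2 and 5, against 2, 96 and 54 reads in Control 3, 4 and 5. Scaled to CPM, that was 32.8, 71.7 and 39.0 in TSDP and 0.0618, 2.94 and 1.34 in Control. The lowest TSDP library lay far above the highest Control library, and TSDP 5, which had the least albumin of its group, was above TSDP 1. The log2 fold change was 5.04 ± 1.02 (SE, edgeR adjusted p = 0.326), and 4.48 ± 0.55 without Control 3. In the edgeR fit Cyp2f2 ranked 102 by p among 17423 genes. Reads of Gm15883, an annotated gene whose exons overlap it on the other strand, could be mixed with its own, as the strand setting of the counting is not given in the sources used here. That gene averaged 1.42 CPM in TSDP and 0.139 CPM in Control.

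Hal (ENSMUSG00000020017) encodes histidine ammonia-lyase, the first enzyme of histidine breakdown, which is made in liver and in skin. Its level was 56.3, 94.6 and 54.8 CPM in TSDP 1, 2 and 5, against 34.4, 40.7 and 19.5 CPM in Control 3, 4 and 5. Here Control 3, with 1112 reads, was not the lowest library, and it stood above Control 5. At a log2 fold change of 1.12 ± 0.34 (SE, adjusted p = 0.334 by edgeR), 1.18 ± 0.40 without Control 3, Hal differed least of the 8. Of the genes that mark skin and kidney, where Hal or Rhbg are also used, Krt14 averaged 1.35 CPM in TSDP and 1.43 CPM in Control, and Slc12a1 7.74 and 7.95 CPM. The list of 6 summed to 4.36 to 14.6 CPM in TSDP and to 6.84 to 12.2 CPM in Control, with Krt5, Umod and Pvalb at 0 in at least 1 library.

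Sds (ENSMUSG00000029597) encodes serine dehydratase, which turns serine into pyruvate for glucose synthesis. It was counted at 18.7, 37.9 and 13.3 CPM in TSDP 1, 2 and 5, against 0.0927, 7.30 and 2.11 CPM in Control 3, 4 and 5. The value of Control 3 rests on 3 reads, and the remaining Control libraries stayed under the lowest TSDP library. The log2 fold change was 2.88 ± 1.16 (SE, edgeR adjusted p = 0.371), and 2.3 ± 0.70 without Control 3. Exons of Plbd2, at 75.7 CPM in TSDP and 64.1 CPM in Control, and of Gm15690 overlap Sds on the other strand.

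Gls2 (ENSMUSG00000044005) encodes the liver form of glutaminase, which frees ammonia from glutamine for urea synthesis. Its values were 41.7, 46.0 and 27.5 CPM in TSDP 1, 2 and 5, against 6.73, 15.4 and 8.75 CPM in Control 3, 4 and 5. The groups were separate, and Control 3, with 218 reads, lay close to Control 5. On the log2 scale its difference was 1.90 ± 0.36 (SE, adjusted p = 0.326 by edgeR), or 1.66 ± 0.34 without Control 3, and Gls2 had the smallest unadjusted p of the members, 0.00148. Exons of Spryd4, at 15.98 CPM in TSDP and 10.3 CPM in Control, overlap it on the other strand.

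Hsd17b13 (ENSMUSG00000034528) encodes a protein of hepatocyte lipid droplets. It stood at 62.2, 109.8 and 33.9 CPM in TSDP 1, 2 and 5, against 0.0927, 31.1 and 6.17 CPM in Control 3, 4 and 5. TSDP 5 and Control 4 were nearly level, and Control 3 had 3 reads. Its log2 fold change was 2.46 ± 1.40 (SE, adjusted p = 0.47 by edgeR), 1.87 ± 0.80 without Control 3.

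On the pericentral side, Cyp2e1 (ENSMUSG00000025479) encodes the P450 that oxidises ethanol and paracetamol. It was counted at 1237, 2576 and 781.6 CPM in TSDP 1, 2 and 5, against 1.76, 558.1 and 114.3 CPM in Control 3, 4 and 5. The highest library exceeded the lowest, Control 3 with 57 reads, 1460-fold, and the gap between TSDP 5 and Control 4 was small beside that range. Its log2 fold change was 2.77 ± 1.57 (SE, adjusted p = 0.471 by edgeR), and 2.18 ± 0.84 without Control 3.

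Cyp1a2 (ENSMUSG00000032310) encodes a P450 that metabolises caffeine and is induced through the aryl hydrocarbon receptor. It stood at 170.8, 239.6 and 104.8 CPM in TSDP 1, 2 and 5, against 0.278, 37.8 and 16.7 CPM in Control 3, 4 and 5. Each TSDP library exceeded every Control library clearly, and Control 3 had 9 reads. The log2 fold change was 3.23 ± 1.31 (SE, edgeR adjusted p = 0.371), the greatest of the pericentral members, and 2.64 ± 0.51 without Control 3.

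Oat (ENSMUSG00000030934) encodes ornithine aminotransferase, a mitochondrial enzyme that joins ornithine to glutamate and proline metabolism and is found in many tissues besides pericentral liver. Its level was 104.2, 115.8 and 59.0 CPM in TSDP 1, 2 and 5, against 21.3, 47.0 and 30.0 CPM in Control 3, 4 and 5. The groups were separate and Control 3 still held 688 reads. Its log2 fold change was 1.5 ± 0.37 (SE, adjusted p = 0.326 by edgeR), and 1.26 ± 0.35 without Control 3.

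Rhbg (ENSMUSG00000104445) encodes an ammonium transporter of pericentral hepatocytes and kidney. It had 8, 15 and 6 reads in TSDP 1, 2 and 5, against 0, 4 and 5 reads in Control 3, 4 and 5, or 0.219, 0.434 and 0.167 CPM against 0, 0.123 and 0.124 CPM. The groups did not overlap, but 6 and 5 reads are not distinguishable at this depth, and the 0 of Control 3 allows up to 0.0927 CPM (3 counts). In the fit without the filter on low counts its log2 fold change was 1.62 ± 0.81 (SE, edgeR adjusted p = 0.624). Exons of Gm38392, at 0.0561 CPM in TSDP and 0.0638 CPM in Control, overlap Rhbg on the same strand.

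Median fold changes of the zones lay close together, and a difference between zones was not tested. The median log2 fold change was 2.46 over the 5 periportal members and 2.77 over the 3 tested pericentral members, against -0.02 over all tested genes. Without Control 3 these medians were 1.87 and 2.18, and without Control 4 they were 4.36 and 4.33. All 8 tested members had over 10 reads in at least 5 libraries. The filter asks for as many libraries as a group holds, so the TSDP libraries alone were enough to pass it. In Control 3 Cyp2f2, Sds and Hsd17b13 had 2, 3 and 3 reads, too few to pass on the Control libraries alone. The division that the values do show runs through both zones and was seen after the values were known. Hal, Gls2 and Oat kept 218 to 1112 reads in Control 3, and their levels there were 50.1%, 17.5% and 22.9% of the TSDP mean. Cyp2f2, Sds, Hsd17b13, Cyp2e1 and Cyp1a2 had 2 to 57 reads in Control 3. Rhbg, with at most 15 reads in any library, cannot be placed with either set. Cyp2e1 was there at 0.115% of its TSDP mean, Cyp1a2 at 0.162% and Alb at 0.309%. Between the highest and the lowest library Hal differed 4.86-fold, Oat 5.45-fold and Gls2 6.84-fold, while Cyp1a2 differed 862-fold. The SE of the fold changes was 0.34 to 0.37 for Hal, Gls2 and Oat and 1.02 to 1.57 for the other tested members. Range and SE both depend on the Control 3 values that drew this division, so they lend it no separate support.

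**Figure D2:**
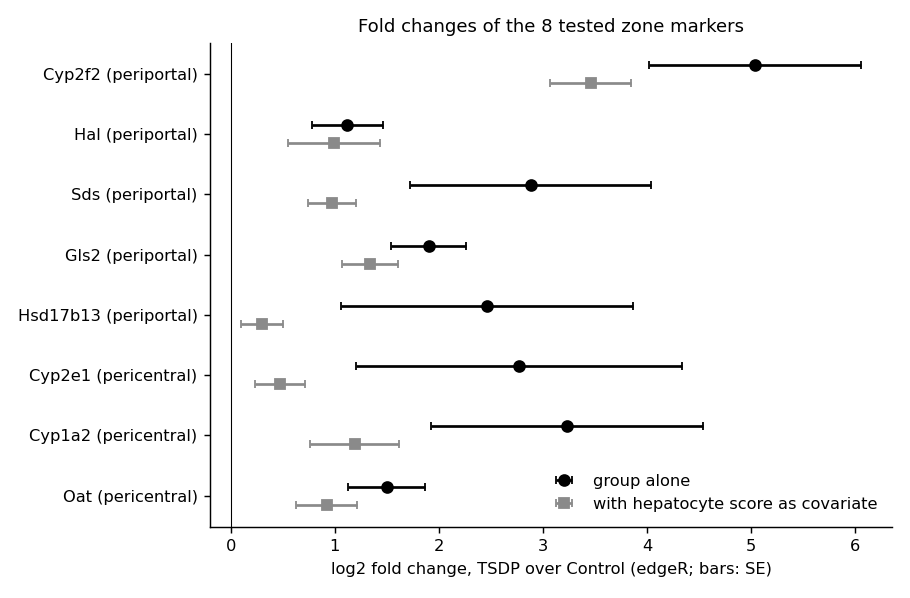
Log2 fold change of TSDP over Control for the 8 tested members, with bars of 1 SE; black circles are the edgeR fit on group alone and grey squares the fit that also holds the hepatocyte score. All points are above 0, and the grey squares run from 0.30 for Hsd17b13 to 3.46 for Cyp2f2.

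Levels of different genes were compared per kb of exon. In TSDP libraries Cyp2e1 averaged 709.8 CPM per kb ± 432.2 and Cyp1a2 85.3 ± 33.5 (SD, n = 3). Oat followed at 39.4 ± 12.7, Hsd17b13 at 31.8 ± 17.8, Cyp2f2 at 23.6 ± 10.3, Sds at 13.8 ± 7.64, Hal at 12.4 ± 4.07, Gls2 at 11.1 ± 2.79 and Rhbg at 0.141 ± 0.0728 CPM per kb. Within TSDP libraries the order of Cyp2e1 over Cyp1a2, Cyp1a2 over Oat, Cyp2f2 over Sds and Gls2 over Rhbg held in 3 of 3, and that of the other neighbours in 2 of 3, which is within their spread. In Control libraries Cyp2e1 had the highest mean, 104.1 CPM per kb ± 136.3 (SD, n = 3), and 155.8 without Control 3. In Control 3 itself it stood at 0.816 CPM per kb, below Oat at 9.01, Hal at 6.19 and Gls2 at 1.94. Oat, at a Control mean of 13.9 ± 5.55 (16.3 without Control 3), stood above Cyp1a2, at 9.07 ± 9.33 (13.5 without it), in 3 of 3 Control libraries. Cyp2f2, at a Control mean of 0.716 ± 0.713 CPM per kb (1.06 without Control 3), lay below Sds, at 1.87 ± 2.19 (2.78 without it), in Control 4 and Control 5, where TSDP libraries had the opposite order. In Control 3 the pair had 2 and 3 reads and cannot be ordered. The other Control means without Control 3 were 8.64 CPM per kb for Hsd17b13, 5.42 for Hal, 3.47 for Gls2 and 0.0638 for Rhbg.

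In a fit that holds the level of broadly expressed hepatocyte genes, the fold changes of the markers were smaller, and that of Cyp2f2 was again the greatest of the 8. All 16 broad hepatocyte genes had positive log2 fold changes, with a median of 2.1 and 0 of 16 past the edgeR threshold. Rbp4, the retinol carrier, averaged 661.6 CPM ± 387.6 in TSDP and 86.2 CPM ± 103.3 in Control (SD, n = 3 each), Ttr, the thyroxine carrier, 1641 and 221.2 CPM, and Apoa2, an apolipoprotein of HDL, 629.2 and 84.7 CPM. A score, the mean log2 CPM of these 16 genes, was added to the edgeR model as a covariate. The score differs between the groups itself, so it can take up part of a group difference that runs with it and can enlarge others: with it the cholangiocyte median was -0.64 and the oncofetal one -0.38, against -0.01 and -0.18 on group alone. With it the log2 fold change was 3.46 ± 0.39 for Cyp2f2 (SE, edgeR adjusted p = 0.153), 1.34 ± 0.27 for Gls2, 1.19 ± 0.43 for Cyp1a2, 0.99 ± 0.44 for Hal, 0.97 ± 0.23 for Sds and 0.92 ± 0.29 for Oat. Cyp2e1 came to 0.47 ± 0.24 and Hsd17b13 to 0.30 ± 0.20. All 8 stayed positive and 0 passed the edgeR threshold, with 0.00% of all genes called. Of the 16 broad genes 8 were positive in that fit, with a median of 0.10. The score is made of these same genes, so values around 0 were built in and are no comparison for the markers.

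Per library, each member was also expressed as a log2 ratio to the mean CPM of the 16 genes, with 0.5 CPM added to both. Cyp2e1 lay at -0.82, -0.72 and -0.81 in TSDP 1, 2 and 5, against -2.02, -1.64 and -1.25 in Control 3, 4 and 5. Its TSDP values differed by 0.10 at most, and all were above the Control values. Cyp2f2 lay at -6.04, -5.88 and -5.11 in TSDP, against -4.02, -8.98 and -7.21 in Control. Control 3 was above TSDP here, but it has 2 Cyp2f2 reads and its ratio is set by the added 0.5 CPM. Hsd17b13 stood at -5.12, -5.26 and -5.31 in TSDP and at -3.95, -5.78 and -5.35 in Control, so that TSDP 5 and Control 5 hardly differed. Hal reached 1.93 in Control 3, Oat 1.25 and Gls2 -0.34, each far above its TSDP values. The mean ratio of the periportal members was -5.74 ± 0.27 in TSDP and -4.87 ± 2.52 in Control (SD, n = 3 each), and that of the pericentral members -5.22 ± 0.29 and -4.12 ± 1.91. The difference of TSDP minus Control was -0.88 for periportal and -1.10 for pericentral members, less than the spread between Control libraries. Without Control 3 the periportal difference turned to 0.52 and the pericentral one was -0.11. Rhbg enters the pericentral mean with levels below the added 0.5 CPM. In Control 3 Sds and Hsd17b13, at 0.0927 CPM each, and Cyp1a2, at 0.278 CPM, also lay below it. Their ratios there, like that of Cyp2f2, are set largely by the added value.

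**Figure D3:**
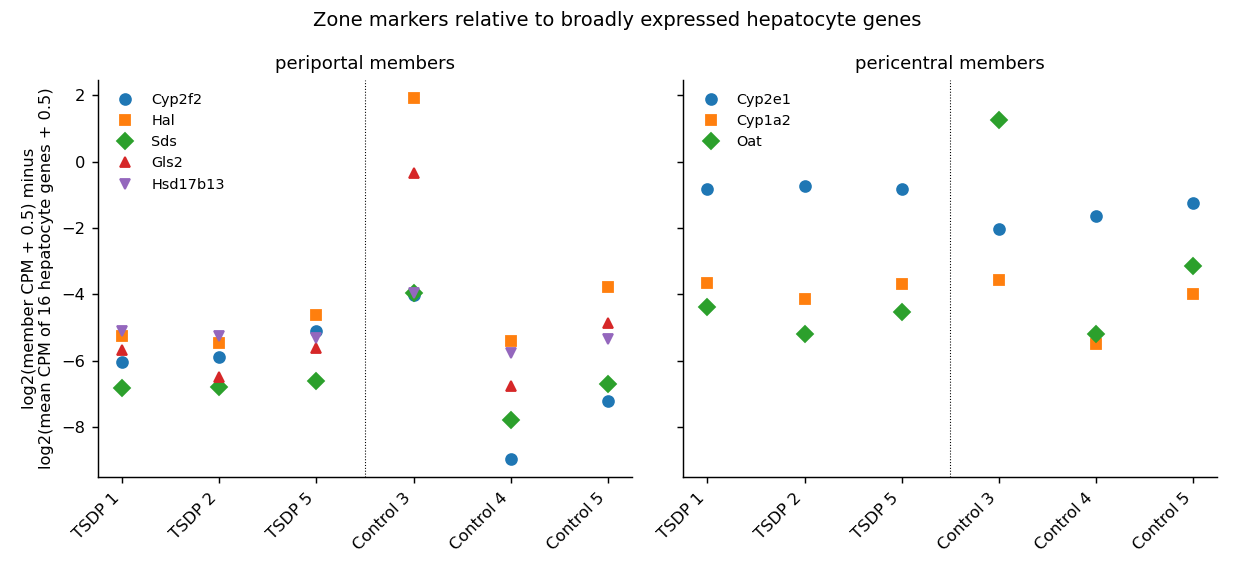
Log2 ratio of each member to the mean of 16 broadly expressed hepatocyte genes, by library, for periportal members (left) and pericentral members without Rhbg (right), with a dotted line between TSDP and Control libraries. Cyp2e1 is nearly level over the TSDP libraries, between -0.82 and -0.72, and Hal, Oat and Gls2 stand far above the rest in Control 3.

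TSDP 5 and Control 4 had similar sums of the broad hepatocyte genes, 21883 CPM in TSDP 5 and 27802 CPM in Control 4. Single genes of that list differed both ways, with Fga at 1694 and 4015 CPM and Ttr at 825.6 and 459.2 CPM. The pair was therefore not matched gene by gene, and liver content itself was not measured. Of the 16 broad genes 7 were higher in TSDP 5, as were 51.9% of all tested genes. All 9 zone markers were higher in TSDP 5, which follows from groups without overlap. Cyp2f2 was at 39.0 CPM in TSDP 5 and 2.94 CPM in Control 4, Cyp1a2 at 104.8 and 37.8 CPM, and Hsd17b13 at 33.9 and 31.1 CPM. Of the other periportal genes 15 of 18 were higher in TSDP 5, and of the other pericentral genes 10 of 17. This pair was picked after the values were seen and has 1 library of each group, so it carries no test.

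Cyp2f2 was set against Cyp2e1 as a pair of single markers, which does not stand for the zones, as Cyp2f2 had the greatest fold change. Beside Cyp2e1 at a log2 fold change of 2.77, Sds stood at 2.88, but Hsd17b13 at 2.46, Gls2 at 1.90 and Hal at 1.12. The measure was the share of Cyp2f2 in Cyp2f2 plus Cyp2e1 reads. It was 2.58% (95% Clopper-Pearson interval 2.44 to 2.73) in TSDP 1, 2.71% (2.60 to 2.81) in TSDP 2 and 4.76% (4.52 to 5.01) in TSDP 5. In Control 4 it was 0.525% (0.425 to 0.640) and in Control 5 1.16% (0.873 to 1.51). Control 3, with 59 reads of the pair, gave 3.39% with an interval of 0.413 to 11.7, which spans the values of the other 5 libraries. The intervals cover counting error only. Group means were 3.35% ± 1.22 in TSDP and 1.69% ± 1.5 in Control (SD, n = 3 each). Without Control 3 the Control mean was 0.843% ± 0.45 (SD, n = 2), and both Control libraries lay below every TSDP library, so the overlap of the groups rests on the 59 reads of Control 3.

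**Figure D4:**
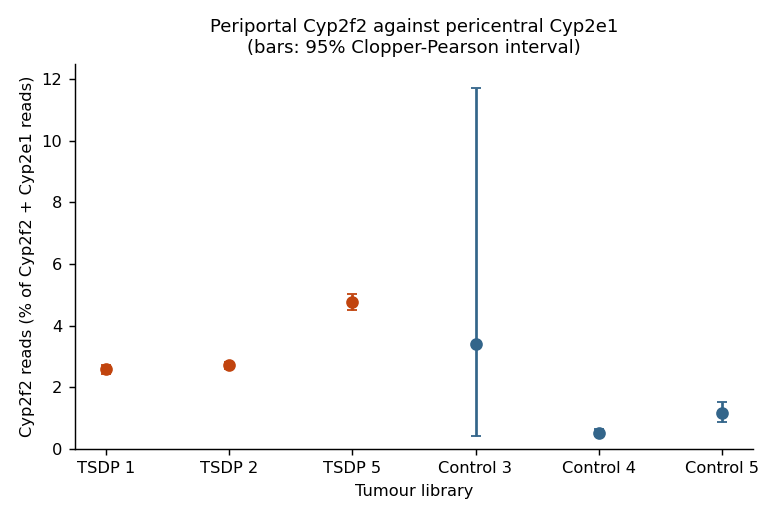
Cyp2f2 reads as a percentage of Cyp2f2 plus Cyp2e1 reads in each library, with 95% Clopper-Pearson intervals. The 3 TSDP libraries lie between 2.58% and 4.76%, above Control 4 and Control 5, and the interval of Control 3 covers the others.

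Other genes of each zone were mostly higher in TSDP by their fold changes, though not all without overlap. Beside the counts of both zones, 47.3% of all tested genes were positive and 13.0% were higher without overlap. Of the 16 broad hepatocyte genes, 16 were positive and 7 were higher without overlap. Of 18 further periportal genes 18 were positive, 0 passed the edgeR threshold, 15 had groups without overlap and the median log2 fold change was 2.43. Etnppl, a phospho-lyase of phosphoethanolamine, had 37.7, 47.7 and 28.1 CPM in TSDP 1, 2 and 5, against 0.154, 0.613 and 0.895 CPM in Control 3, 4 and 5. Mfsd2a, a lipid transporter, averaged 8.49 CPM ± 2.96 in TSDP and 0.888 CPM ± 0.584 in Control (SD, n = 3 each). Gldc, the glycine decarboxylase, averaged 63.7 and 15.3 CPM, and Ass1, the urea cycle enzyme argininosuccinate synthase, 367.3 CPM ± 104.8 and 73.1 CPM ± 54.2.

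Of 17 further pericentral genes 16 were positive, 0 passed the edgeR threshold, 10 had groups without overlap and the median was 2.19. Glul, the glutamine synthetase of the cells next to the central vein, had 327.7, 536.4 and 211.5 CPM in TSDP 1, 2 and 5, against 86.8, 180.3 and 93.0 CPM in Control 3, 4 and 5. Its groups did not overlap, and the fold change was 1.58 ± 0.43 on the log2 scale (SE, adjusted p = 0.326 by edgeR). Tbx3, a transcription factor downstream of Wnt signals, averaged 6.22 CPM ± 3.52 in TSDP and 1.73 CPM ± 0.826 in Control (SD, n = 3 each). Cyp2a5, a P450 that hydroxylates coumarin and whose reads may be shared with its close relatives, averaged 20.6 CPM ± 9.21 in TSDP and 1.63 CPM ± 1.51 in Control, and was at 0 in Control 3. With the hepatocyte score as covariate the medians were 0.86 for the further periportal genes and 0.61 for the pericentral ones, with 17 of 18 and 11 of 17 positive.

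Regulators of zonation were mixed. Of 13 tested, 9 were positive and 4 negative, 0 passed the edgeR threshold and the median log2 fold change was 1.15. The 4 negative ones were Ctnnb1, Apc, Znrf3 and Lgr4, between -0.26 and -0.06, and Tcf7l2 was at 0.11. Rspo3, Wnt2 and Wnt9b were at 1.78 ± 0.95, 1.15 ± 0.90 and 2.02 ± 1.13 (SE), and these 8 genes are named after their values were seen. The groups overlapped for Wnt2 and Wnt9b but not for Rspo3. Over all Control libraries Wnt2 had 57 reads and Wnt9b 11. Cebpa, a transcription factor of hepatocytes and myeloid cells, averaged 83.1 CPM ± 29.1 in TSDP and 31.5 CPM ± 15.4 in Control (SD, n = 3 each). Gcgr, the glucagon receptor that drives periportal gluconeogenesis, averaged 38.6 CPM in TSDP and 6.33 CPM in Control. Of the 8 cholangiocyte genes 7 were tested, with 3 positive, 4 negative and a median of -0.01. Their sum was 2190 to 7386 CPM in TSDP and 3479 to 8938 CPM in Control, nearly all of it Spp1, the osteopontin gene, which had 1978 to 7150 CPM in TSDP and 3232 to 8704 CPM in Control and is named here after its values were seen. Cftr was among the genes at 0 in at least 1 library. In that list Krt19 averaged 47.0 CPM in TSDP and 61.8 CPM in Control, and Krt7 1.80 and 1.39 CPM. The 5 tested oncofetal genes had a median of -0.18, and 0 cholangiocyte, oncofetal or skin and kidney genes passed.

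**Figure D5:**
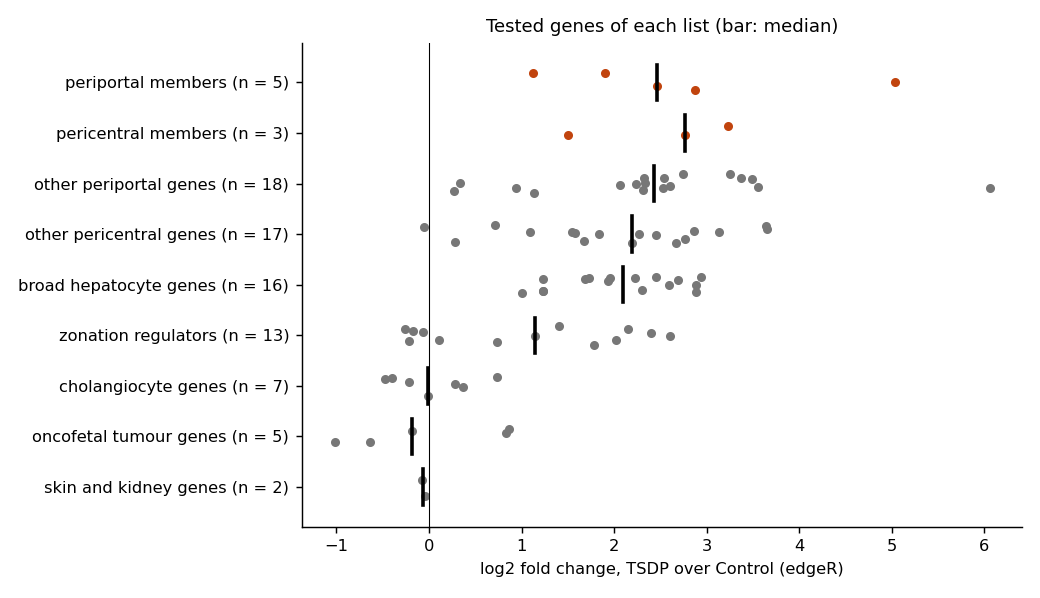
Log2 fold change of TSDP over Control for the tested genes of each list, 1 point per gene with a bar at the median; vertical scatter within a row carries no value. Zone markers, further genes of each zone and broad hepatocyte genes lie mostly between 1 and 4, while cholangiocyte, oncofetal and skin and kidney genes lie between -1.02 and 0.86.

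Genes whose pattern over the 6 libraries lay closest to a member's were found by the root mean square distance between centred log2 CPM profiles, among 13034 genes. For Cyp2f2 they were Mup14 (distance 0.34) and Mup19 (0.45), major urinary protein genes whose reads can be shared with their relatives. Hal lay closest to Arsg, a lysosomal sulfatase (0.11), and Slc25a13, the mitochondrial aspartate and glutamate carrier (0.14). Sds lay closest to the transporter Slc17a3 (0.09) and to Prodh2, the hydroxyproline dehydrogenase (0.13), and Gls2 to Hao1, the glycolate oxidase of peroxisomes (0.14), and Gstm6 (0.15). For Hsd17b13 the nearest were Serpina1a and Apon (0.12 each), secreted liver proteins, and for Cyp2e1 Nat8f2 (0.10) and the complement gene C9 (0.14). Among the nearest to Cyp1a2 was Fabp1, a fatty acid binding protein (0.19). Oat lay closest to Bckdhb, a subunit of the branched-chain keto acid dehydrogenase (0.10). For Rhbg, whose low counts are drawn together by the prior count of 2, they were Bace2 (0.08) and Plxnc1 (0.12).

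Among the members themselves the closest pair joined the zones, Gls2 with Oat at a distance of 0.23, and the next was Hsd17b13 with Cyp2e1 at 0.31, also 1 of each zone. The farthest was Cyp2e1 with Hal at 3.10. The order of the libraries, TSDP 2 above TSDP 1, TSDP 5, Control 4, Control 5 and Control 3, was that of Alb for 6 of the 9 members. The exceptions were Cyp2f2, with TSDP 5 above TSDP 1, Hal, with Control 3 above Control 5, and Rhbg, with Control 5 above Control 4.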

How the data were processed

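Total RNA of the tumours was isolated with RNeasy and sequenced from KAPA mRNA HyperPrep libraries (labels' protocols). The tools listed are CASAVA, FastQC and MultiQC, with Trimmomatic 0.38 for trimming, HISAT2 2.1.0 for alignment and featureCounts 2.0.0 for counting, per the submitters' processing notes; roles are those the tools usually have. Build, annotation and strand setting: not given in the sources used here. The authors deposited whole read counts per Ensembl gene without normalization. They also deposited a normalized signal, which equals the count over a fixed factor for each library within a relative 5.22e-15; only its gene symbols were used.

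Sample titles gave the groups. No label ties a library to an animal, so a p-value reflects only how much these samples vary, which may be technical. No pair of libraries agreed within counting noise, and the closest pair had a chi-square of 42.8 per gene. The main test was the quasi-likelihood F test of edgeR 4.0.16 under R 4.3.3, on all 6 libraries with group as the term. It used TMM scaling and filterByExpr at a minimum count of 10, which left 17423 genes, and calls were made at a Benjamini-Hochberg adjusted p of 0.05. SE is the size of the log2 fold change over the root of F. CPM was scaled by TMM, and log2 CPM used a prior count of 2. Exon lengths per kb are unions of GENCODE M21 exons. Alternatives were other scaling, filters, DESeq2 1.42.0, voom of limma 3.58.1, a hepatocyte score as covariate and leaving out each library.

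Members and lists were chosen with earlier results of these data known. Named besides the members are the 3 genes of smallest p in each list other than skin and kidney, skin and kidney genes averaging 1 CPM or more, Alb, Glul, Ass1, and the 2 nearest patterns of each member among genes averaging 1 CPM or more. Genes overlapping a member, and those at 0, are named for that reason. Some genes that this rule gives, and a motif searched, are not reported here.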

Additional observations from a re-analysis of the deposited data

How the results depend on the processing

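No paired analysis was possible because the groups share only replicate number 5. The 8 tested members kept a positive log2 fold change under each of the 15 alternatives. Calls depended on the tool. DESeq2 called 547 genes higher and 73 lower, and 4 members: Cyp2f2 at a log2 fold change of 5.03 (adjusted p = 0.00276), Hal at 1.11 (0.0352), Gls2 at 1.89 (2.57e-05) and Oat at 1.49 (0.00297). Under the other alternatives (edgeR and limma-voom) adjusted p of these 8 members ran between 0.153 and 0.858, and 0 were called. Without the filter on low counts edgeR called 1 gene higher, which is no member. The periportal median was 4.12 by limma-voom and 0.99 with the hepatocyte score, and 1.87 to 4.36 with 1 library left out, the highest without Control 4. The cause was not tested. The pericentral median was 4.76 by limma-voom, 0.92 with the score and 2.15 to 4.33 with 1 library left out. Differences of the mean ratio to hepatocyte genes ran between -1.92 and 0.52 for periportal and between -2.01 and -0.11 for pericentral members with 1 library left out. With 0.1 CPM added they were -0.50 and -0.84, with 2 CPM -1.35 and -1.31, and with Alb as denominator -1.12 and -1.34. The difference in mean Cyp2f2 share was 1.66 percentage points, and 0.953 to 2.51 with 1 library left out, the lowest without TSDP 5, next 1.07 without Control 4, and the highest without Control 3. Without Hal and Gls2 the periportal difference was 0.09, and without Oat the pericentral one was -0.69; these and the share's settings were chosen after seeing the data. Other scalings moved the median of all genes by -0.07 at most. Low counts limit Rhbg throughout, and Cyp2f2, Sds, Hsd17b13 and Cyp1a2 in Control 3.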
